A study of Homo sapiens with 12 samples.

Results

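The early response of HK-2 cells to the compound named Di was measured on 6 of 12 expression arrays. HK-2 is an immortalised epithelial line derived from the proximal tubule of a human kidney. The 6 arrays were chosen by their labels: 3 came from cells treated with Di for 12 h and 3 from cells kept with the control vehicle for 12 h. The other 6 arrays held the same treatments at 48 h. All groups were grown in the same medium with 5 mM glucose and 10 ng/ml EGF, were seeded 24 h before treatment and were treated at about 90% confluence. The identity of Di and its dose are not given in the sources used here. Each group is 3 labelled biological replicates of 1 cell line, so n = 3 per group applies to every value, and the spread is that between cultures of this line.

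HK-2 cells are used to study how tubular epithelium answers toxic compounds. Such cells rest on a basement membrane of type IV collagens, laminins, nidogens and heparan sulphate proteoglycans, which they make in part themselves. Electrophilic and oxidising compounds release the transcription factor NRF2 from its inhibitor KEAP1, and NRF2 then raises genes for glutathione and thioredoxin metabolism. Stress of protein folding and amino acid supply acts through ATF4 and the unfolded protein response, DNA damage acts through p53, and sugar phosphates act on TXNIP and lipid synthesis through the MondoA and ChREBP factors.

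The labelled cell type was checked against marker genes. Of 10 markers of renal epithelium, 9 lay above a log2 value of 4, the level taken as the detection floor, among them PAX8 and EPCAM. Their summed level was 14.27 to 14.45 on the log2 scale in Di arrays and 14.38 to 14.44 in control arrays. Of 11 proximal tubule markers on the array, only the peptidase DPP4 lay above the floor, and the endocytic receptors LRP2 and CUBN and the water channel AQP1 did not in either group. The summed proximal tubule markers stood at 10.58 to 10.83 in Di arrays and 10.46 to 10.76 in control arrays. Of 5 markers of other kidney segments on the array, only the water channel AQP2 lay above the floor, with means of 5.05 in Di arrays and 4.92 in control arrays. None of 5 endothelial and 3 leukocyte markers lay above the floor, and 3 of 7 fibroblast markers did, led by the matrix proteoglycan DCN, with a summed level of 11.98 to 12.23 in Di arrays and 11.93 to 12.04 in control arrays. In the 6 marker lists KRT18, a keratin, was the only member called, at a log2 change of 0.34, and its call ended when control replicate 2 was left out (limma adjusted p = 0.0632).

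The arrays of both groups had the same all-probe median, 3.00 on the log2 scale (two-sided exact permutation p = 0.8). The median of the genes tested was 7.83, 7.68 and 7.83 in Di arrays and 7.88, 7.86 and 7.86 in control arrays, which did not overlap (7.78 ± 0.0857 against 7.87 ± 0.0157, SD, exact permutation p = 0.1, the smallest that 3 against 3 can give). The actin probe sets at the 3′ end exceeded those at the 5′ end, a distance that grows as RNA degrades or labelling stops early, by 1.32, 0.95 and 1.40 in Di arrays and 1.55, 1.90 and 1.69 in control arrays, again without overlap (exact permutation p = 0.1). Replicate 2 of Di lay lowest in both measures and farthest from its group, and its hybridisation control bioB was also lowest (6.83, against 7.43 to 7.76 in the other 5 arrays). The 12 h control arrays also stood apart from the 48 h arrays. At 48 h the actin gap was 1.35, 1.37 and 1.49 with Di and 1.37, 1.43 and 1.19 in controls. The medians of tested genes there were 7.69, 7.75 and 7.77 with Di and 7.78, 7.80 and 7.76 in controls. The 12 h controls were thus the highest of the 12 arrays in both measures. These array measures moved with the groups at 12 h, and their part in the results was not tested.

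**Figure D1:**
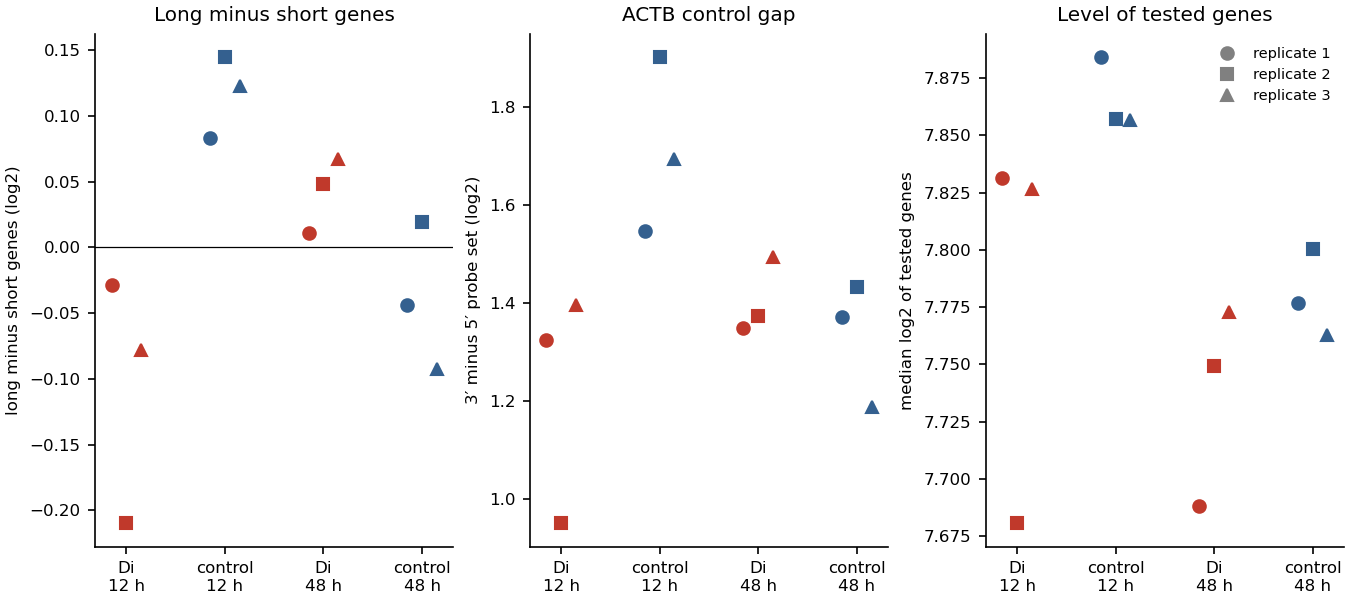
Array measures in all 12 arrays, 3 replicates per group, each point 1 array: the level of genes of at least 160 kb minus that of genes under 5 kb (left, log2, each gene relative to its mean over 12 arrays), the actin 3′ minus 5′ gap (middle, log2) and the median log2 level of the genes tested (right). At 12 h the Di and control arrays do not overlap in any of the panels, and Di replicate 2 is the lowest of the 12 h arrays in each.

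Of 10626 genes tested, 1453 were called at 12 h (13.7%, limma adjusted p under 0.05), 414 of them higher with Di (3.9%) and 1039 lower (9.78%). Most changes were small. The median log2 change was 0.40 among genes called higher and −0.46 among genes called lower, 16 and 21 genes changed at least 2-fold, and 295 and 606 changed by less than 0.5 log2. Over all genes the median change was −0.06, with 4094 positive and 6532 negative. With each array centred on the median of its tested genes, 735 genes were called higher and 618 lower, so that 54.3% of 1353 calls were higher, and 1027 genes were called in both fits. The balance between rises and falls thus depended on the scaling. Counts fell to 189 higher and 556 lower without replicate 2 of control at 12 h, to 205 and 573 without its replicate 3, and to 236 higher without replicate 3 of Di.

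Probe sets read different stretches of a gene's transcripts, so their agreement was examined for every call. Other kept probe sets, those of suffix _x_at left out, existed for 738 of the called genes, 1143 in all. Among all 18957 probe sets of the same fit 5.06% were called higher and 7.3% lower (12.4% in all). Of the 1143, 797 (69.7%) had the sign of the probe set that represented the gene, 210 (18.4%) were called in the same direction, and 29 (2.54%) were called in the opposite one. Over all genes, called or not, 58.9% shared the sign. The share was 71.4% for genes called lower and 65.1% for genes called higher. Where a gene had several probe sets, all shared the sign and at least 1 other was called the same way for 34 of 195 higher genes and 114 of 543 lower genes. In contrast, 219 higher and 496 lower genes had no other kept probe set once those of suffix _x_at were left out.

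Of 49 gene lists, that of the basement membrane had the highest share of falling members. Of 24 listed genes 19 were measured, and 13 of them fell and none rose, or 68.4% called lower against 9.78% of all genes. In RNA from whole cultures, less RNA per cell and fewer cells that make it cannot be told apart. The median log2 change of the 19 was −0.61, and 17 of them had all 3 Di values under all 3 control values, against 23.6% of all genes. Type IV collagens, which form the network of the membrane, fell with COL4A3 (−1.04 ± 0.182, SE), COL4A4 (−0.72), COL4A2 (−0.63) and COL4A1 (−0.56). Laminin chains, the cross-shaped glycoproteins to which cells attach, fell with LAMB2 (−0.84), LAMA5 (−0.73), LAMA1 (−0.63), LAMB1 (−0.59) and LAMC3 (−0.58). The linkers NID1 (−0.68) and NID2 (−0.58) fell as well, as did the proteoglycan agrin, AGRN (−0.84), and the collagen that carries endostatin, COL18A1 (−0.61).

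AGRN had log2 values of 9.01, 9.24 and 9.06 in Di arrays and 9.97, 9.88 and 9.97 in control arrays (1.79-fold lower, limma adjusted p = 0.00148). LAMA5 had 8.56, 8.76 and 8.72 in Di arrays and 9.39, 9.31 and 9.52 in control arrays (1.66-fold lower, limma adjusted p = 0.00165). In both genes the groups lay far apart compared with the spread within them. COL4A3 had 6.28, 6.04 and 6.09 in Di arrays and 7.08, 7.09 and 7.35 in control arrays (2.05-fold lower, limma adjusted p = 0.00593). LAMB2 had 5.11, 4.74 and 5.13 in Di arrays and 5.64, 5.77 and 6.10 in control arrays (1.79-fold lower, limma adjusted p = 0.00841). None of these 4 genes overlapped between groups, and each kept its call without any 1 of the 12 arrays. The most abundant members were COL4A1, at 11.73, 11.67 and 11.75 in Di arrays against 12.22, 12.32 and 12.30 in control arrays, and LAMB1, at 11.67, 11.38 and 11.69 against 12.16, 12.20 and 12.13.

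The 6 measured members without a call were COL4A5 at −1.13 ± 0.42, the proteoglycan perlecan HSPG2 at −0.49, LAMB3 at −0.31, the collagen-binding SPARC at −0.23, LAMC1 at −0.15 and LAMA2 at 0.26. COL4A5 had the largest difference of the list and also the widest spread, at 6.84, 5.09 and 6.78 in Di arrays against 7.46, 7.49 and 7.17 in control arrays (limma adjusted p = 0.0969), with Di replicate 2 far below the others. LAMC1, which pairs with most of the other chains, overlapped between groups. Among called members, a second kept probe set outside suffix _x_at agreed in direction for COL4A1, COL4A2, COL4A4, LAMB1, NID1 and COL18A1. It was itself called for all of these but COL4A4. The count of falling members stayed between 10 and 14 in 21 alternative settings and was lowest without replicate 2 of control at 12 h.

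**Figure D2:**
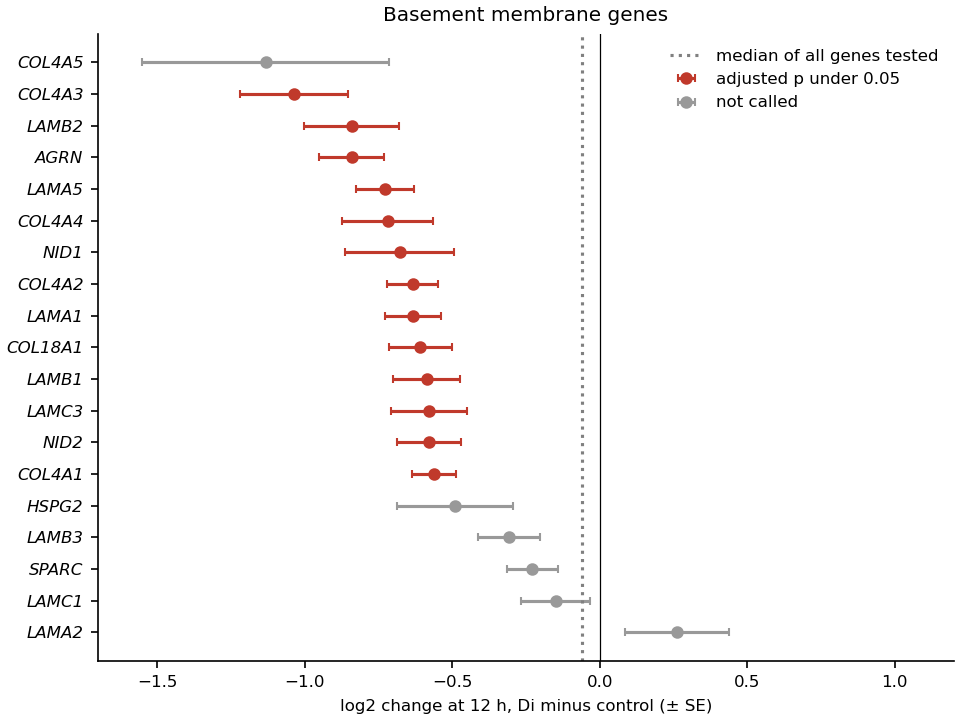
Log2 change at 12 h, Di minus control, of the 19 measured basement membrane genes, with bars of 1 SE from the limma fit on 3 arrays per group. Red points mark the 13 genes called and grey points the 6 not called, and 18 of the 19 lie under 0.

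The type IV collagen genes lie in head-to-head pairs that are read outward from a common stretch of DNA. They are shown because both genes of each of 2 pairs fell together. The starts of COL4A1 and COL4A2 on chromosome 13 are 127 bases apart, and those of COL4A3 and COL4A4 on chromosome 2 are 419 bases apart. The windows below are from RefSeq (GRCh38.p14), 250 bases before to 50 after the gene start, on the strand of the named gene, with capitals for the bases shared with the window of its partner, 226 bases for COL4A1 (chr13:110307108-110307407, minus strand) and 82 bases for COL4A3 (chr2:227164374-227164673, plus strand).
COL4A1: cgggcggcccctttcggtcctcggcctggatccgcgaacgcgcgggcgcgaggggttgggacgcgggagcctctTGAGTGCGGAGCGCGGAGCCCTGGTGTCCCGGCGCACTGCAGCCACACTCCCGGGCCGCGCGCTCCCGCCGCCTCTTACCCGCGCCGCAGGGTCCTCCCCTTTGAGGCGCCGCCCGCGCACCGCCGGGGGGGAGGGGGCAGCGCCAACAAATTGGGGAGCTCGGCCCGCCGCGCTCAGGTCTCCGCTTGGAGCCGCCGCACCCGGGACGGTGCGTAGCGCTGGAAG
COL4A3: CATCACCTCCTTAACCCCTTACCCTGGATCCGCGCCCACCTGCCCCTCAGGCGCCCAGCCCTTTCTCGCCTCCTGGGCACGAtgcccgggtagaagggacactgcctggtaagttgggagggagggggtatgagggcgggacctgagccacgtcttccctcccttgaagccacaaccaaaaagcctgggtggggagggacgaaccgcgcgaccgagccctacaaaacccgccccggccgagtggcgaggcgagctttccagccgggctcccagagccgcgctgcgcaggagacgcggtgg

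Other matrix and attachment genes also stood lower. Of 21 measured genes of the interstitial matrix and TGF-beta response, 6 fell and none rose (28.6% lower, against 9.78% of all genes), with a median of −0.30. The secreted matrix protein CCDC80 had 4.36, 4.11 and 3.97 in Di arrays and 5.33, 5.98 and 5.22 in control arrays (2.58-fold lower, limma adjusted p = 0.00409), without overlap. COL6A2, a chain of the microfibrillar type VI collagen, had 6.23, 5.80 and 6.24 in Di arrays and 6.88, 7.27 and 7.09 in control arrays (1.98-fold lower, limma adjusted p = 0.00466), and its other probe set was called lower too. The microfibril protein FBN1 fell by 0.66 on the log2 scale, and the adhesion-modulating TNC by 0.58. On the deposited scale all 11 measured integrins, the receptors that bind matrix to the cell, had negative changes, with a median of −0.25, and 3 fell, of which ITGA6 (−0.48) kept its call without any 1 array and lost it with the mean of its probe sets. The tight junction list did not share this, with 3 of 19 members lower (15.8%) and a median of −0.03 that changed sign with the scaling. Its largest fall was in cingulin, CGN (−1.12 ± 0.155), at 4.23, 4.28 and 3.92 in Di arrays against 5.09, 5.42 and 5.29 in control arrays.

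Across all genes the direction at 12 h went with the length of the gene in the genome. Length here is the extent of the gene in RefSeq (GRCh38.p14), introns included, known for 10619 of the genes tested. The share of genes called lower was 2.42% of the 992 genes under 5 kb, then 4.81%, 6.65%, 8.98%, 11.7% and 14.1% in bins that doubled in length, and 19.5% of the 1024 genes of at least 160 kb. The share called higher ran the other way, from 7.16% in the shortest bin to 0.977% in the longest. The median log2 change was 0.04 in the shortest bin and −0.19 in the longest. At 48 h the bin medians lay between −0.08 and 0.02 and did not fall with length. Spearman's rho between change and length, across genes, which are not independent replicates, was −0.276 at 12 h and 0.0627 at 48 h.

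Taken array by array, with each gene set relative to its mean over 12 arrays, the median of the long genes minus that of the short genes was −0.03, −0.21 and −0.08 in Di arrays at 12 h and 0.08, 0.14 and 0.12 in control arrays at 12 h. The groups did not overlap. At 48 h it was 0.01, 0.05 and 0.07 in Di arrays and −0.04, 0.02 and −0.09 in control arrays, which did overlap. The 12 h difference of −0.23 between long and short genes was −0.16 without replicate 2 of Di, and it was −0.02 with no filter on low values, where 1866 long and 3001 short genes entered. The 19.5% of long genes called lower became 9.57% when control replicate 2 was left out and 10.7% when control replicate 3 was, beside 1.21% and 1.92% of short genes. It was present at each level of expression, with medians for long genes of −0.14 at log2 levels of 4 to 6, −0.23 at 6 to 8, −0.19 at 8 to 10 and −0.14 above 10, against 0.01, 0.02, 0.10 and 0.05 for short genes. In control cells alone the change between 12 h and 48 h, taken gene by gene, had a median of −0.03 in long genes and −0.04 in short genes. Taken array by array, however, the 12 h control arrays (0.08, 0.14 and 0.12) all lay above the 48 h control arrays (−0.04, 0.02 and −0.09). The 2 measures thus differ on whether control cells shifted with length over time, and the reason was not tested.

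The gene groups differed in length as well. The median length was 31.0 kb over all genes, 108.6 kb for the basement membrane list, 67.3 kb for fatty acid synthesis, 62.3 kb for kinesins and 56.6 kb for cilium genes, which all stood lower, and 8.67 kb for mitochondrial ribosomal proteins and 15.3 kb for proteasome subunits, which stood higher. Other lists did not follow length. Homologous recombination and Fanconi repair genes, at 69.1 kb, had 3.85% called lower, against 9.78% of all genes. The EGF family list, at 75.3 kb, had a median change of −0.05. Cytosolic ribosomal proteins, at 5.21 kb, and tubulins, at 5.31 kb, had no member called higher. In the basement membrane list 3 of 5 genes of at least 160 kb and 10 of 14 shorter ones were called lower. The part that length plays in the list results was not tested.

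**Figure D3:**
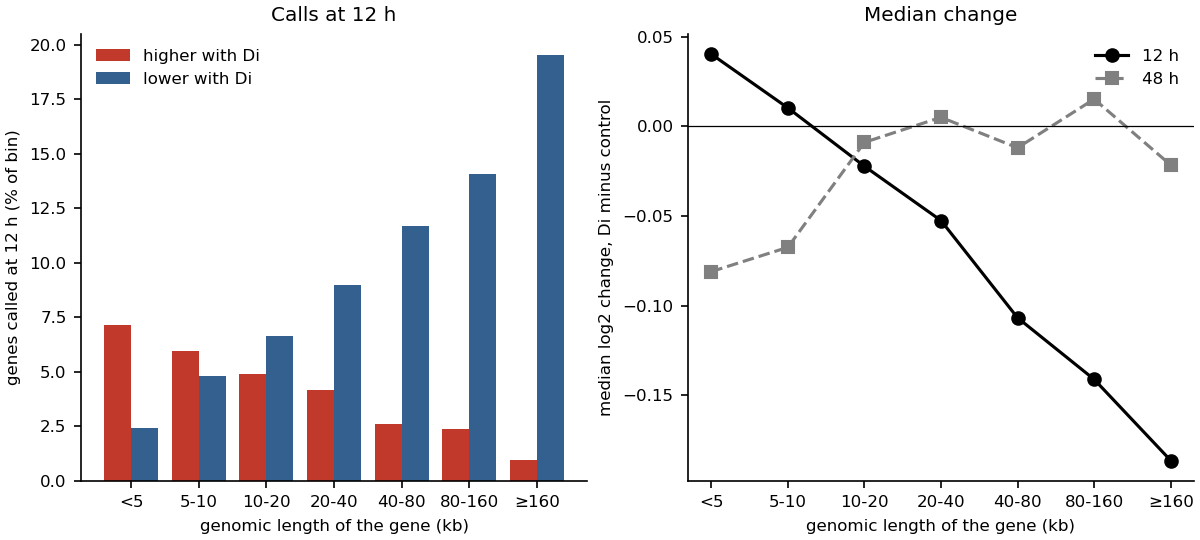
Genes called at 12 h as a percentage of each bin of genomic length in kb (left; red higher with Di, blue lower) and the median log2 change, Di minus control, in the same bins at 12 h (black) and 48 h (grey) (right). The share called lower climbs to 19.5% in the longest bin, from 2.42% in the shortest, and the 12 h medians fall with length while the 48 h medians do not.

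The largest fall among genes checked by several probe sets was in TXNIP, an arrestin-like protein that inhibits thioredoxin and restrains glucose uptake. TXNIP had 7.51, 7.53 and 7.18 in Di arrays and 9.52, 9.78 and 9.57 in control arrays (log2 change −2.22 ± 0.169, 4.66-fold lower, limma adjusted p = 0.000223). Its other 2 probe sets were both called lower, at −1.92 and −1.64. Its relative ARRDC4, which also restrains glucose uptake, had 3.20, 3.28 and 3.59 in Di arrays and 4.67, 4.56 and 4.37 in control arrays, at least 1.45-fold lower against the detection floor (limma adjusted p = 0.000376). The groups of both genes were well separated. These were the 2 called members of the 6 measured alpha-arrestins and glucose-sensing factors. In control cells TXNIP averaged 3.77 at 48 h, and ARRDC4 averaged 3.04, both under the floor.

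The TXNIP window is shown because MondoA and ChREBP act through a carbohydrate response element. A match to 2 copies of CACGNG set 5 bases apart, searched on both strands, begins 88 bases before the gene start and stands in capitals (RefSeq, GRCh38.p14, chr1:145996530-145996829, minus strand). The letters occur in 20 of 27305 promoter windows of the same length (0.0732%) and in 15 of the 8818 windows of genes tested (0.170%), and of the 6 windows of the list only in that of TXNIP.
TXNIP: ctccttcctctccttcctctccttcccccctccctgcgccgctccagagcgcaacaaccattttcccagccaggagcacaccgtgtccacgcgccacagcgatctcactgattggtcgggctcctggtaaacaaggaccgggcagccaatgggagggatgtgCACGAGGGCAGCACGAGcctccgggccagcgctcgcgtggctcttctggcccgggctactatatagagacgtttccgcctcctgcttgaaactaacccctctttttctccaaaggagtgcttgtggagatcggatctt

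Fatty acid synthesis genes stood lower, with 5 of 10 measured members falling (50%, against 9.78% of all genes), none rising and a median of −0.29. Fatty acid synthase, FASN, had 8.39, 8.41 and 8.18 in Di arrays and 8.98, 8.98 and 9.09 in control arrays (1.61-fold lower, limma adjusted p = 0.00164), without overlap. The lipogenic transcription factor SREBF1 had 7.21, 7.09 and 7.23 in Di arrays and 7.84, 7.72 and 7.60 in control arrays. The other members called were ACLY and ACACA, which supply the precursors, and the desaturase SCD, whose change of −0.30 turned to 0.43 with the mean of its probe sets. FASN kept its call without any 1 array, and SREBF1, ACLY and SCD did not. The count of 5 was 1 without replicate 2 of control at 12 h, 3 without its replicate 3, 3 when replicate 1 of the 12 h Di arrays was left out 2 when replicate 3 was, and 2 with only the 12 h arrays fitted. Sterol synthesis had 1 of 18 genes higher, mevalonate kinase MVK (0.63), and 1 lower, the sterol-sensing factor SREBF2 (−0.49), whose call ended with the mean of its probe sets.

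Some targets of NRF2 rose early. Of 26 measured members 6 were called higher and none lower (23.1%, against 3.9% of all genes), with a median of 0.17, and 11 had Di values all above the control values, against 11.1% of all genes. GCLM, the modifier subunit of glutamate-cysteine ligase, had 10.06, 10.26 and 10.09 in Di arrays and 9.18, 9.23 and 9.32 in control arrays. Both of its other probe sets had the same sign, at 0.62 and 0.47, and the first of them was called. The thioredoxin reductase TXNRD1 had 11.46, 11.54 and 11.49 in Di arrays and 10.50, 10.65 and 10.72 in control arrays. HMOX1, which breaks down heme, had 8.35, 8.49 and 8.35 in Di arrays and 7.71, 7.83 and 7.76 in control arrays. The Di and control values of these 3 genes did not overlap, and each rose by less than 1 log2 unit. The cystine transporter SLC7A11 (0.79), the quinone reductase NQO1 (0.46) and the sulfiredoxin SRXN1 were the other members that rose, and all 3 probe sets of NQO1 were called. Of the 2 other probe sets of SLC7A11 1 had its sign, and TXNRD1 and HMOX1 had no other kept probe set. The count was 6 to 9 in 21 alternative settings. At 48 h all 26 members were higher and each had a larger change than at 12 h by the test of the difference.

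The windows of GCLM and TXNRD1 are shown for matches to the antioxidant response element, to which NRF2 binds with small MAF proteins. Of the 4 called members with a window, these 2 hold a match. Binding at these matches was not tested. The letters searched were TGACNNNGC on both strands, and matches stand in capitals. GCLM (RefSeq, GRCh38.p14, chr1:93909381-93909680, minus strand) has 1 match, 34 bases before its start. TXNRD1 (chr12:104215529-104215828, plus strand) has 2, 99 and 8 bases before its start. These letters are common, in 13.6% of all windows and 15.6% of those of genes tested, and they occur in 5 of the 20 NRF2 targets with a window.
GCLM: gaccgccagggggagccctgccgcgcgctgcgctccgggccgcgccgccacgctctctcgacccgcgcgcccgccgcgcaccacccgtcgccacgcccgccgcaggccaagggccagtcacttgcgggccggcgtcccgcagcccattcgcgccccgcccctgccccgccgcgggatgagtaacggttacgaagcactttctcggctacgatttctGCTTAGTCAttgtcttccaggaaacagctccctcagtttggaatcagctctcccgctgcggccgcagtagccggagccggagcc
TXNRD1: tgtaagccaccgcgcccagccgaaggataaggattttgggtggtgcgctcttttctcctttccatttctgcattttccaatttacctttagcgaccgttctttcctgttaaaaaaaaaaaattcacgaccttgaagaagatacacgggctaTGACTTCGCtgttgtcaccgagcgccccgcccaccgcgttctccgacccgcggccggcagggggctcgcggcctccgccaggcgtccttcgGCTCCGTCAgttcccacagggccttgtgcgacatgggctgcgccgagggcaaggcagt

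**Figure D4:**
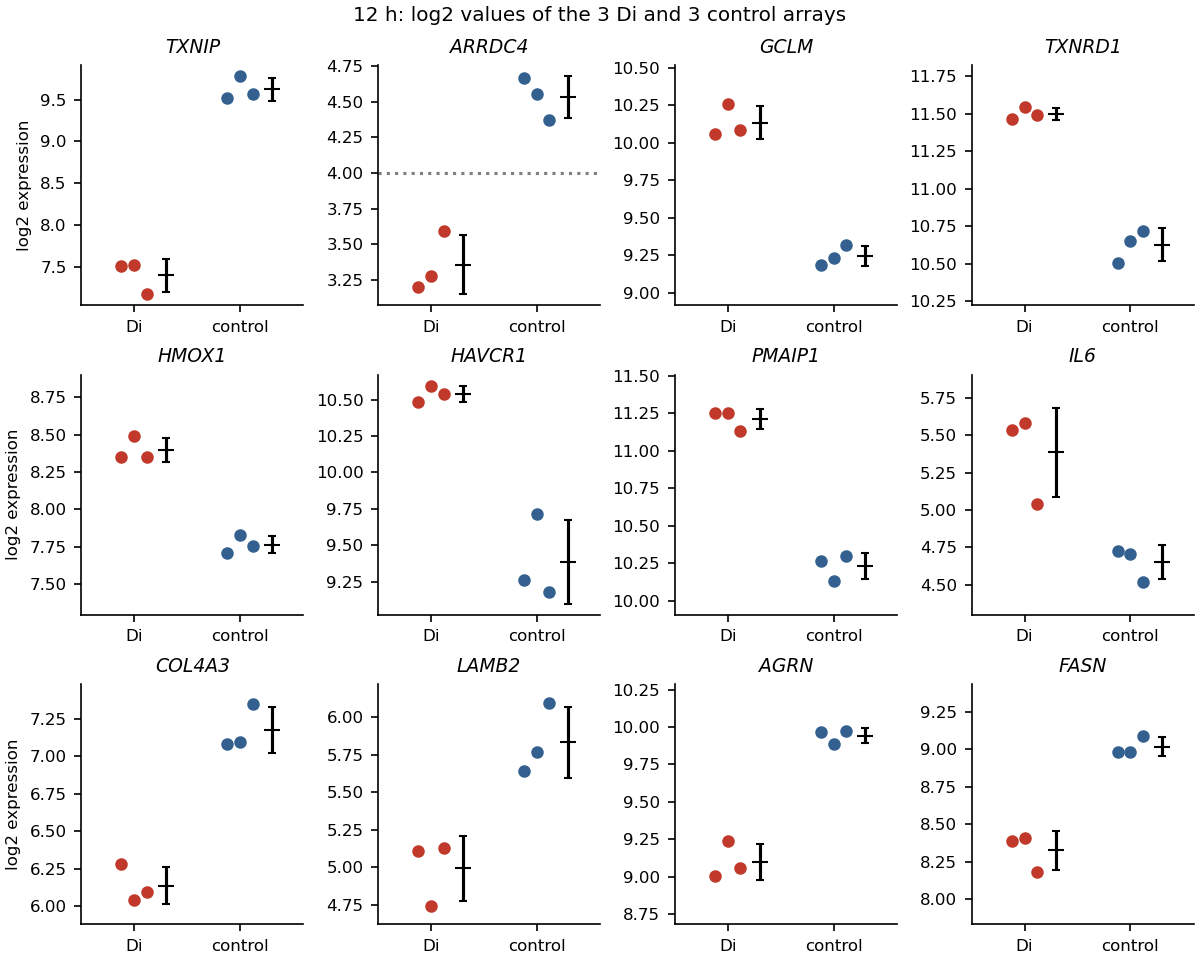
Log2 expression of 12 genes in the 3 Di arrays (red) and the 3 control arrays (blue) at 12 h, with mean ± SD beside the points and a dotted line at the detection floor of 4 where it is in range. The groups do not overlap in any of the 12 genes, and TXNIP has the largest distance between them.

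Stress and death regulators changed in both directions. Of 25 measured p53 targets 6 rose and 2 fell (24% and 8%, against 3.9% and 9.78% of all genes). Of 16 genes of the BCL2 family, which decides between survival and apoptosis, 3 rose and 3 fell (18.8% each). PMAIP1, the death-promoting protein NOXA that belongs to both lists, had 11.25, 11.26 and 11.13 in Di arrays and 10.26, 10.13 and 10.30 in control arrays (1.97-fold higher, limma adjusted p = 0.000245). Its other probe set was called higher as well. The pore-forming BAX had 7.37, 7.93 and 7.79 in Di arrays and 6.65, 6.48 and 6.00 in control arrays, and its call ended without replicate 3 of control at 12 h (log2 change 1.13, limma adjusted p = 0.06). BCL2, the survival factor, had 6.45, 6.27 and 6.57 in Di arrays and 6.95, 6.87 and 6.94 in control arrays (1.4-fold lower, limma adjusted p = 0.0105). Other called members of the family went against this direction or with it. The survival factor BCL2L1 rose (0.47 to 0.80 over the runs without 1 array). The survival factor MCL1 (−0.39 to −0.22) and the death-promoting BCL2L11 (−0.31 to −0.24) fell. Each of these lost its call in some of those runs. The cell cycle inhibitor CDKN1A rose by 0.48 and the stress cytokine GDF15 by 0.59, while the repair protein DDB2 fell by 0.45 on the log2 scale. GDF15 lost its call with no filter on low values, and DDB2 with only the 12 h arrays fitted.

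Of 25 ATF4 targets 7 rose and 2 fell (28% and 8%, against 3.9% and 9.78% of all genes). DDIT3, the transcription factor CHOP, had 7.82, 8.16 and 7.97 in Di arrays and 7.47, 7.46 and 7.35 in control arrays (1.47-fold higher, limma adjusted p = 0.00712). The amino acid transporter subunit SLC3A2, the partner of SLC7A11, had 8.06, 8.14 and 8.08 in Di arrays and 7.58, 7.44 and 7.62 in control arrays. DDIT4, an inhibitor of mTORC1, went the other way, at 11.72, 11.87 and 11.68 in Di arrays and 12.20, 12.17 and 12.23 in control arrays (1.36-fold lower, limma adjusted p = 0.00263). Among tRNA synthetases 2 of 17 rose and 2 fell (11.8% each), with VARS1 at −0.71. Of 23 ER chaperones and unfolded protein response genes 3 rose (13.0%) and none fell. The secreted ER protein MANF was at 10.00, 10.25 and 10.20 in Di arrays and 9.54, 9.49 and 9.59 in control arrays. The ER stress response element, searched on both strands as CCAAT and CCACG set 9 bases apart, was in 7 of 22 windows of this list and in none of the windows of the 3 genes called, against 0.0806% of all windows.

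Of 18 heat shock proteins and cochaperones 1 rose (5.56%, against 3.9% of all genes), DNAJA1, a partner of HSP70 (0.43). Proteasome subunits had 6 of 37 measured members higher (16.2%), none lower and a median of 0.15, and 30 of the 37 changes were positive. PSMD12, a subunit of the regulatory lid, had 10.77, 10.69 and 10.87 in Di arrays and 10.42, 10.28 and 10.21 in control arrays (1.39-fold higher, limma adjusted p = 0.00433), without overlap. The count of 6 was 1 without replicate 2 or replicate 3 of control at 12 h, 3 when replicate 2 of either Di group or replicate 1 of the 48 h controls was left out, 10 with arrays centred on their tested genes and 1 with only the 12 h arrays fitted.

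Growth factor and inflammatory genes gave few calls, and many of these ended when 1 array was left out. On the deposited scale all 8 measured AP-1 and small MAF factors had positive changes, with a median of 0.38, and 2 were called, led by FOSL1 (1.17 ± 0.241), at 5.42, 5.63 and 5.05 in Di arrays and 4.22, 4.25 and 4.11 in control arrays. The other, MAFF, lost its call in 4 of the 12 runs without 1 array. The EGF receptor ligand HBEGF had 7.28, 7.63 and 7.31 in Di arrays and 6.64, 6.74 and 6.89 in control arrays, and LRIG1, which limits EGF receptor signalling, had 5.89, 5.68 and 5.98 against 6.38, 6.58 and 6.28. HBEGF rose and LRIG1 fell, and neither overlapped between groups. In all 2 of 10 EGF family genes rose and 2 fell (20% each). The others called were the receptor inhibitor ERRFI1, which rose (0.20 to 0.28 over the runs without 1 array), and the receptor ERBB2, which fell (−0.68 to −0.42). Both lost their calls in some of those runs. The cytokine IL6 had 5.53, 5.58 and 5.04 in Di arrays and 4.73, 4.70 and 4.52 in control arrays (1.66-fold higher, limma adjusted p = 0.00655). Of 23 genes of the NF-kB and cytokine list 3 rose and 3 fell (13.0% each, against 3.9% higher and 9.78% lower over all genes). IL6 kept its call in all 12 runs without 1 array. CXCL8 and REL lost theirs in 9 of them, LIF in 6, CXCL5 in 4 and TNFAIP2 in 1. Of 24 interferon-stimulated genes 2 rose and 2 fell (8.33% each), with the antiviral sensor OAS3 at −0.66. RIGI and IFI16 lost their calls in 4 and 1 of the runs without 1 array. Of 15 kidney injury markers 1 rose, HAVCR1 (KIM-1), at 10.48, 10.60 and 10.54 in Di arrays and 9.26, 9.72 and 9.18 in control arrays, and 1 was called lower, the protease inhibitor TIMP2 (−0.26). Each is 6.67% of that list. The TIMP2 call ended when Di replicate 1 or 2 or control replicate 2 or 3 at 12 h, or control replicate 1 at 48 h, was left out (limma adjusted p up to 0.11, log2 changes of −0.31 to −0.21 over the runs without 1 array).

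Genes that build mitochondrial ribosomes stood slightly higher. Of 75 measured members 9 rose and none fell (12.0% higher, against 3.9% of all genes), with a median of 0.12 and 58 positive changes, and 27 had Di values all above the control values, which held for 11.1% of all genes. MRPL44 of the large subunit had 8.93, 9.09 and 8.97 in Di arrays and 8.48, 8.21 and 8.32 in control arrays (1.58-fold higher, limma adjusted p = 0.00132). MRPS12 of the small subunit rose by 0.59. The count of 9 was 5 when replicate 3 of the 12 h Di arrays, replicate 2 of the 48 h Di arrays or replicate 3 of the 48 h controls was left out, 4 without replicate 2 or 3 of control at 12 h, 15 with arrays centred on their tested genes and 2 with only the 12 h arrays fitted. Of 26 ribosome biogenesis genes 5 rose (19.2%, against 3.9% of all genes) and none fell. Their median was 0.03, with 14 positive and 12 negative changes, so the list as a whole did not shift. Among those that rose was NOP16 (0.53), whose other probe set was also called. The calls of RRS1 and BYSL ended in 5 and 4 of the 12 runs without 1 array, and that of FCF1 with the mean of its probe sets. The cytosolic ribosomal proteins did not stand higher, with none of 57 called higher, 3 lower and a median of −0.0044. Of 68 subunits of oxidative phosphorylation 1 was called, ATP5F1C, whose change of −0.92 was 0.14 with a floor of 6. Of 55 translation factors 6 rose (10.9%, against 3.9% of all genes) and 5 fell (9.09%, against 9.78%). EIF5A, the factor that carries hypusine, had 11.31, 11.21 and 11.35 in Di arrays and 10.22, 9.96 and 9.99 in control arrays (2.35-fold higher, limma adjusted p = 0.000343), and EEF2K, the kinase that slows elongation, had 7.61, 7.80 and 7.76 against 8.41, 8.51 and 8.60 (1.72-fold lower, limma adjusted p = 0.00266).

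Cell division and cilium genes stood lower by small amounts. Of 31 mitosis genes 7 fell and none rose (22.6% lower, against 9.78% of all genes). Their median was −0.21, and 28 changes were negative, against 6532 of 10626 over all genes. The spindle-associated HMMR had 10.64, 10.27 and 10.47 in Di arrays and 11.05, 11.08 and 10.96 in control arrays, and the checkpoint kinase BUB1B had 8.89, 8.93 and 8.72 against 9.33, 9.19 and 9.34. Neither gene overlapped between groups, and both fell. The mitosis count of 7 was 3 without replicate 2 or 3 of control at 12 h 4 without replicate 3 of Di at 12 h and 3 with only the 12 h arrays fitted. Of 36 DNA replication genes 6 fell (16.7%) and 1 rose, with the DNA ligase LIG1 at −0.77 and RFC1, a subunit of the clamp loader, at −0.44. Of 36 genes of intraflagellar transport and the primary cilium 6 fell (16.7%) and none rose, a count that was 3 without replicate 2 of control at 12 h or with only the 12 h arrays fitted. WDR19, part of the retrograde transport complex, had 7.51, 7.49 and 7.41 in Di arrays and 8.24, 8.09 and 8.08 in control arrays (1.59-fold lower, limma adjusted p = 0.00086), and BBS2 of the BBSome fell by 0.63 on the log2 scale. Of 25 kinesins, the motors that walk along microtubules, 5 fell (20%) and none rose, and KIF26B had 5.26, 4.85 and 4.91 in Di arrays and 6.01, 5.95 and 5.97 in control arrays.

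Several large changes were read the same way by more than 1 probe set. Among the rises was AP1S1, a small subunit of the clathrin adaptor AP-1, at 9.46, 9.96 and 9.74 in Di arrays and 8.22, 7.56 and 7.61 in control arrays, with both other probe sets called higher. Its relative AP1S3 had 8.32, 8.40 and 8.21 in Di arrays and 7.45, 7.14 and 6.99 in control arrays, while AP2A2, a large subunit of the endocytic adaptor AP-2, fell by 0.80 on the log2 scale and lost that call with no filter on low values. The GTPase CDC42 had 12.32, 12.29 and 12.37 in Di arrays and 11.26, 11.28 and 11.27 in control arrays (2.08-fold higher, limma adjusted p = 0.00086), with a narrow spread in both groups. The zinc finger gene ZNF652 (1.59), the ESCRT subunit CHMP1B (0.84) and the mRNA export adaptor ALYREF (0.59) rose as well. The 3 other probe sets of ZNF652 stood at 0.06 to 0.86, and 1 of them was called. Of the 2 others of CDC42, 1 stood at 1.17 and was called, and 1 stood at 0.36 and was not. In control cells at 48 h AP1S1 averaged 8.89, ZNF652 9.21 and CDC42 11.75, all above the control level at 12 h.

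Among the falls, PRKDC, the catalytic subunit of the DNA-dependent protein kinase, had 10.02, 9.45 and 9.96 in Di arrays and 10.57, 10.67 and 10.62 in control arrays (1.75-fold lower, limma adjusted p = 0.00984). TAF5, a subunit of the transcription factor TFIID, had 6.21, 5.94 and 6.29 in Di arrays and 7.05, 7.20 and 7.16 in control arrays. EPG5, needed for the fusion of autophagosomes with lysosomes, had 7.47, 7.03 and 7.17 in Di arrays and 8.20, 8.05 and 8.01 in control arrays. None of these genes overlapped between groups, and Di replicate 2 was lowest in each. The exchange factors DOCK6 (−0.85) and DENND2A (−0.82), ZFYVE26 (−0.83), the centrosomal CDK5RAP2 (−0.79), PWWP2A (−0.76) and CCDC198 (−0.95) fell too, each with another probe set called lower. All of these falling genes kept their calls without any 1 array.

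In some families the share called in either direction was not above the 13.7% of all genes. None of 14 tubulins and 10 metallothioneins and zinc transport genes was called in limma at an adjusted p under 0.05, and 2 tubulins and 0 of the metallothionein list had an unadjusted p under 0.05. Of 333 zinc finger genes of the ZNF family 12 rose and 14 fell, of 200 solute carriers 10 rose and 17 fell, and of 57 long intergenic noncoding RNA genes 1 rose and 2 fell. Among solute carriers SLC17A1, a sodium phosphate cotransporter of the tubule, had 5.96, 6.26 and 5.86 in Di arrays and 6.89, 6.65 and 6.84 in control arrays. The RAB GTPases, which direct vesicle traffic, had more calls, with 6 of 43 higher (14.0%, against 3.9% of all genes) and 5 lower (11.6%, against 9.78%), and RAB31 (0.47) and RAB2B (0.47) were among those that rose. Of the 49 lists, 16 had a median within 0.08 of 0 that changed sign with the scaling of the arrays, and the medians of the other 33 kept their sign under 3 other scalings.

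**Figure D5:**
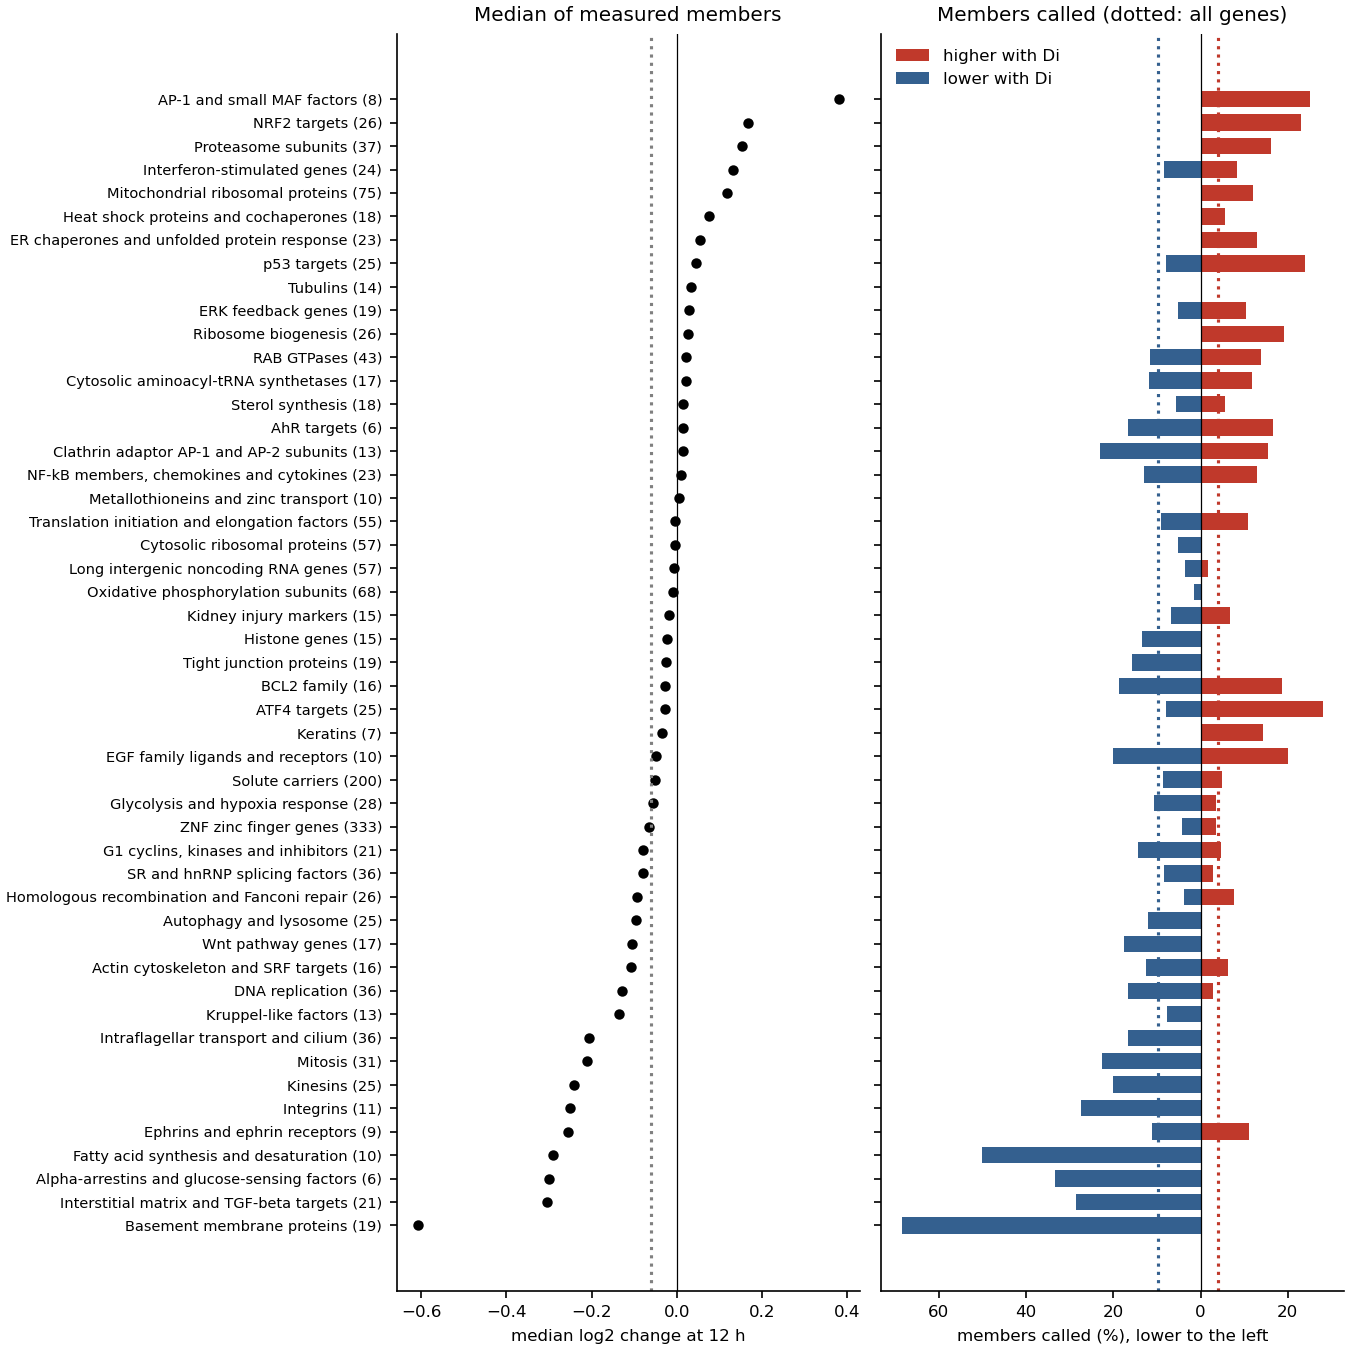
Gene lists by median log2 change, Di minus control at 12 h (left), and the percentage of measured members called higher (red, to the right of 0) or lower (blue, to the left) (right), with the number measured in parentheses. Dotted lines give the median of all genes tested (−0.06) and the shares called over all genes (3.9% higher, 9.78% lower), and basement membrane genes lie lowest with 68.4% called lower.

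The comparison at 48 h used 6 other arrays, where 5413 genes (50.9%) were called. Of the 414 genes higher at 12 h, 212 (51.2%) were higher at 48 h, 50 (12.1%) were lower and 152 were not called, against 22.9% higher and 28.0% lower over all genes. Of the 1039 genes lower at 12 h, 472 (45.4%) were lower, 175 (16.8%) were higher and the others were not called. The 12 h and 48 h changes differed in 4067 genes (38.3%) by the test of the difference. In the basement membrane list 9 of the 13 genes that fell at 12 h were also lower at 48 h, COL4A3 at −3.70 and COL4A4 at −3.45, while NID1 was higher at 48 h (0.92). AGRN differed between times the other way, at −0.84 at 12 h and −0.37 at 48 h (limma adjusted p = 0.0353 for the difference).

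Among genes called in opposite directions at the 2 times, HAVCR1 rose at 12 h (1.15) and fell at 48 h (−1.55), with control means of 9.39 at 12 h and 9.87 at 48 h. The hypoxia-responsive NDRG1 had 7.41, 7.61 and 7.66 in Di arrays and 7.98, 7.97 and 8.11 in control arrays at 12 h (−0.46), against a change of 2.40 at 48 h. ABLIM3, an actin-binding protein, had 4.96, 5.48 and 5.31 in Di arrays and 6.14, 5.91 and 6.28 in control arrays at 12 h (−0.86), against 1.72 at 48 h. These 3 genes did not overlap between groups at 12 h and kept their 12 h calls without any 1 array. For others of this kind the probe sets disagreed. The 12 h rise of the folate receptor FOLR1 (1.49) stood beside another probe set called lower (−0.46), none of the 3 other probe sets of PBX2 had its sign, and the 1 other probe set of EGR1 stood at −0.09.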

How the data were processed

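RNA of 12 HK-2 cultures was hybridised to an Affymetrix human array. The authors deposited log2 values, made with GCRMA per the submitters' processing notes (version not given in the sources used here). No further normalisation was applied. Of 54675 probe sets, 62 controls were left out, and a table of the platform gave 41097 probe sets 1 gene symbol, 1801 several and 11777 none. Probe sets with values over 4 (log2) on 3 or more of the 12 arrays were kept, 18957 of them with 1 gene. The brightest kept probe set stood for its gene, one of suffix _x_at only where no other existed.

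The 12 arrays entered 1 limma 3.58.1 model (R 4.3.3; lmFit, then eBayes) that gave each group its own mean. Two-sided p-values were adjusted by Benjamini-Hochberg over 10626 genes, and genes were called under 0.05. Errors of changes are standard errors of the fit. A fold against a group mean under the floor of 4 is a lower bound. Precision is limited by having 3 arrays a group. The same fit on every kept probe set gave probe-set agreement, with those of suffix _x_at left out of the other probe sets compared. The fit was tested on simulated data. Array measures were compared by exact permutation of 3 against 3.

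The members and the gene lists were chosen with earlier results of these data known, so lists are described by counts and medians beside those of all genes. Genes were named by a rule: up to 4 called members per list and direction, the largest changes that several probe sets share, the largest opposite changes between 12 h and 48 h, and 6 genes of stress and glucose response. Of the 197 genes named by it, 105 kept their call without any 1 array, and the text gives mostly these. All basement membrane genes are named because their count stood out, a choice made after their values were seen. Promoter windows are RefSeq's. Python 3.11.15 and matplotlib 3.10.9 drew the figures.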

Additional observations from a re-analysis of the deposited data

Results flagged for a closer look

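Of the genes called at both times in opposite directions, 50 were higher at 12 h and 175 were lower at 12 h. All of them were also called by limma's test of the difference between times. The 12 genes given here were picked for the largest differences (12 h minus 48 h, log2), so that test adds no support for them. The higher 12 h change was in ID1, an inhibitor of differentiation (3.11), the immediate early gene EGR1 (2.82), HAVCR1 (2.70), PBX2 (2.26), FOLR1 (2.22) and ZNF652 (2.13). The lower 12 h change was in the growth factor KITLG (−3.56), KLHL29 (−3.22), NDRG1 (−2.86), the ectonucleotidase NT5E (−2.68), ABLIM3 (−2.58) and ANKRD33B (−2.32).

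The 12 h call of ID1 ended without replicate 2 of control at 12 h (limma adjusted p = 0.0524), and that of EGR1 without replicate 2 or 3 of Di at 12 h (adjusted p up to 0.056). That of KLHL29 ended without any 1 of the 12 h control arrays (up to 0.0854), and that of NT5E without any 1 of 10 arrays (up to 0.14). The 12 h changes of these 4 genes ranged over the runs without 1 array from 0.52 to 0.67 for ID1, 0.33 to 0.55 for EGR1, −1.02 to −0.49 for KLHL29 and −0.43 to −0.24 for NT5E. The 2 other probe sets of KITLG stood at 0.57 and 0.42 at 12 h, against −0.32 for the one that represents the gene.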

How the results depend on the processing

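Counts of calls at 12 h moved most. With only the 12 h arrays fitted, 145 genes were higher and 430 lower. With a replicate block 155 were higher and 466 lower (same-numbered arrays correlated in their deviations at 0.154, −0.0774 and −0.227 at 12 h, and Di replicate 2 correlated best with control replicate 3, at 0.266, so the numbers do not pair them). With arrays centred on their tested genes, chosen after seeing the data, 735 were higher and 618 lower. Over the runs without 1 array, counts ranged from 189 to 457 higher and from 556 to 1048 lower. Genes with different changes at 12 h and 48 h (3555 to 4418 without 1 array), basement membrane genes called lower (10 to 14) and NRF2 targets called higher (6 to 9) stayed within 1.5 times their main counts, as did interstitial matrix genes called lower (4 to 9 over 21 alternatives). Other lists did not. Over the same alternatives proteasome subunits called higher ranged from 1 to 10 (1 with the replicate block), mitochondrial ribosomal proteins from 2 to 15 (3 with the block), and genes called lower from 1 to 5 for fatty acid synthesis (1 with the block), from 3 to 10 for mitosis (3) and from 3 to 7 for cilium genes (3). Probe-set agreement stood at 67.9% with no filter and 69.9% without probe sets of suffix _x_at or _s_at. The sign turned with the mean of all kept probe sets for KLF3 (0.0026), MCL1 (0.033), BCL2L11 (0.061), SCD (0.43) and KITLG (0.22), with a floor of 6 for RPL7 (0.0081) and ATP5F1C (0.14), and with no filter for RAB12 (−0.024). Of 197 named genes 72 kept their call in every alternative, and the runs without 1 array lost 9 to 75 of the 197 calls. The cause was not tested.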
